A study of Mus musculus with 7 samples.

Results

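Stellate cell and extracellular matrix genes were followed in RNA from the nonparenchymal fraction of mouse liver, which holds the macrophages, endothelial cells, stellate cells and lymphocytes and leaves most hepatocytes behind. The 41 genes were chosen by name from the 20354 gene rows of a table of read counts, and all 41 had a row. They comprise genes of stellate cell identity, collagens, other matrix proteins, collagen crosslinkers and processing enzymes, and matrix proteases with their inhibitors. Of these, 40 had enough counts to be tested, among 14077 genes tested in all, and only Timp1 did not.

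The libraries were made from nonparenchymal cells of Shp2 KO mice (3 libraries) and WT mice (4 libraries), all of the C57BL/6J strain, untreated and 2 months old. In the knockout, the line Shp2ΔK (Shp2f/f:Clec4f-Cre+/-), Cre recombinase driven by Clec4f, a gene of the resident liver macrophages called Kupffer cells, deletes floxed Shp2, the phosphatase encoded by Ptpn11. The labels do not say whether the WT mice carried floxed alleles, nor that each library came from a separate mouse, so the p-values rest on the spread among these 7 libraries, which may be technical. The genotype field of the knockout libraries names Shp1, Shp2 and Shp3 in turn, whereas the titles give Shp2 for each, and grouping went by title.

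Hepatic stellate cells lie between the sinusoidal endothelium and the hepatocytes, where they store vitamin A in the healthy liver. On activation in injury they lose this store, become contractile and secrete fibrillar collagen, the main component of scar. Basement membrane proteins such as collagen IV, laminin and nidogen are also made by sinusoidal endothelial cells, and fibronectin largely by hepatocytes. In a mixed fraction, fewer cells of a type and less RNA per cell cannot be told apart.

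Total counts per library lay between 15263666 and 32003205 in Shp2 KO and between 11678385 and 26545605 in WT, and the 41 genes took 0.333% to 0.445% of the counts in Shp2 KO and 0.356% to 0.518% in WT. Shp2 KO replicate 3 and WT replicate 2 stood apart from the other libraries on the first pair of principal components, and the share of Rn18s, a ribosomal RNA gene, was 7.54% in Shp2 KO replicate 3 and at most 0.122% elsewhere. Genes of the mitochondrial genome took 33.2% of the counts in Shp2 KO replicate 2 and between 17.3% and 22.4% elsewhere. Ptpn11 lay between 70.0 and 86.2 CPM in Shp2 KO and between 75.3 and 95.5 CPM in WT, where CPM (counts scaled to a common library size with TMM factors) is the unit used throughout. These groups overlapped, and Ptpn11 reads from outside the deleted exons or from cells without Cre would not show the deletion. Clec4f lay between 436 and 865 CPM in Shp2 KO and between 1390 and 2660 CPM in WT. Cre is driven by Clec4f in the knockout line, and the part of the Cre allele in this level was not tested. Stellate cell markers were present throughout, since Lrat, Reln, Des, Hand2, Ngfr and Pdgfrb had at least 22 counts in every library.

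No stellate or matrix gene passed the threshold of an adjusted p of 0.05 between Shp2 KO and WT. Col3a1 and Ngfr had an unadjusted p under 0.05, both higher in Shp2 KO. In edgeR's quasi-likelihood test 0 of the 40 genes were called, as were 0% of all genes tested (smallest adjusted p among the 40 genes, 0.929). At an unadjusted p under 0.05, 2 of 40 were higher and 0 lower, where 2.27% of all genes tested were higher, 2.35% lower and 4.62% either.

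Other tests gave the same null count. DESeq2 called 0 of the 40 where it called 0.469% of all genes tested, and limma voom called 0 of both. Voom with library quality weights called 0 of the 40 and 0.0639% of all genes tested. At an unadjusted p under 0.05, DESeq2 had Col3a1, Ngfr and Des higher and Timp3 lower, beside 2.43% higher, 3.10% lower and 5.53% either over all genes tested. Limma voom had Col3a1 and Ngfr, both higher, beside 2.32% higher, 2.20% lower and 4.53% either. With quality weights, Col3a1, Ngfr, Col5a2 and Lrat were higher and Ecm1, Eln and Timp3 lower, beside 6.03% higher, 5.51% lower and 11.5% either.

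The libraries that stand apart were also left out. Without WT replicate 2, Col3a1, Ngfr and Col5a2 were higher at an unadjusted p under 0.05 and 0 genes lower, beside 1.99% higher, 2.24% lower and 4.22% either over all genes tested. Without Shp2 KO replicate 3, Col3a1, Ngfr and Lrat were higher and Eln lower, beside 2.83% higher, 3.09% lower and 5.93% either. Without both libraries, Col3a1, Ngfr, Col5a2 and Lrat were higher and Eln and Timp3 lower, beside 3.62% higher, 3.96% lower and 7.58% either. The last fit called 0.0141% of all genes tested and 0 of these genes.

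The log2 fold change of Shp2 KO over WT was above 0 in 22 of the 40 and below 0 in 18, with a median of 0.07 beside 0.01 over all genes tested. 

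**Figure D1:**
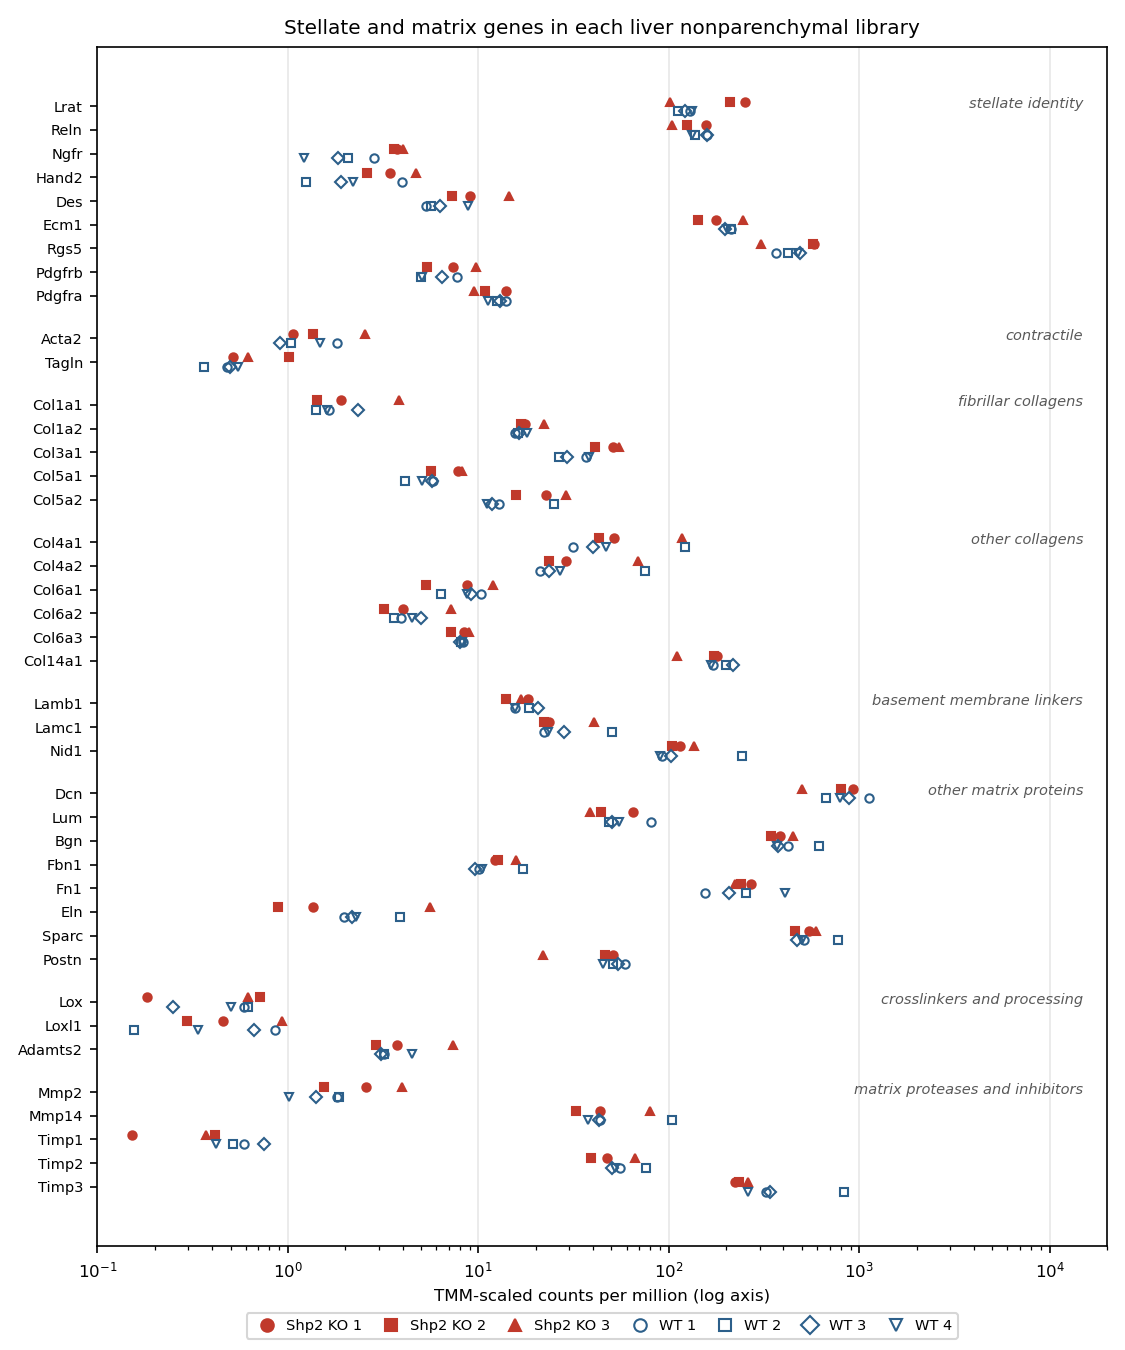
TMM-scaled CPM of the 41 genes (log axis), grouped by role, with filled red points for the 3 Shp2 KO libraries and open blue points for the 4 WT libraries. Values run from 0.151 CPM (Timp1) to 1130 CPM (Dcn), and in most of them the red and blue points overlap.

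Among the genes of stellate cell identity, Ngfr stood higher in every Shp2 KO library. This gene, which encodes the p75 neurotrophin receptor, was at 3.73, 3.61 and 4.02 CPM in Shp2 KO and at 2.82, 2.07, 1.83 and 1.22 CPM in WT. The knockout libraries were close together, while the WT libraries varied and WT replicate 1 came nearest to them. Its log2 fold change was 0.93 ± 0.32 (SE; edgeR, unadjusted p = 0.0162, adjusted p = 0.956). Every Shp2 KO library lay above every WT library in 3.03% of all genes tested, and the groups were apart in either direction in 6.07%. On CPM from library size alone the Ngfr groups met, at 3.15 CPM in Shp2 KO replicate 2 and 3.17 CPM in WT replicate 1, and on that scale the groups were apart for 4.44% of all genes tested and for 0 of these 41.

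Lrat encodes the enzyme that esterifies retinol for storage and marks quiescent stellate cells. It was at 252, 209 and 101 CPM in Shp2 KO and at 129, 112, 122 and 132 CPM in WT. Shp2 KO replicates 1 and 2 lay above all WT libraries and replicate 3 below all of them, so that the groups overlapped. The log2 fold change was 0.60 ± 0.29 (SE; edgeR, unadjusted p = 0.0626, adjusted p = 0.956). Without Shp2 KO replicate 3 it was 0.90 (unadjusted p = 0.00132, adjusted p = 0.825), and without Shp2 KO replicate 1 it was 0.32.

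Des, the gene of the intermediate filament desmin, was at 9.09, 7.28 and 14.5 CPM in Shp2 KO and at 5.32, 5.64, 6.31 and 8.79 CPM in WT. Its log2 fold change, 0.65 ± 0.30 (SE; edgeR, adjusted p = 0.956), was 0.33 without Shp2 KO replicate 3, the highest library. Hand2, a transcription factor gene of stellate cells, was at 3.45, 2.60 and 4.70 CPM in Shp2 KO and at 3.99, 1.24, 1.91 and 2.19 CPM in WT. WT replicate 1 lay inside the knockout range, and the log2 fold change of 0.61 ± 0.41 (SE) was 1.01 without it and 0.38 without Shp2 KO replicate 3. Of the Hand2 exon bases 19.6% overlap an antisense gene, Hand2os1, from which reads of this unstranded library kit cannot be told apart.

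Reln, the gene of the secreted glycoprotein reelin, was at 156, 125 and 104 CPM in Shp2 KO and at 159, 138, 158 and 133 CPM in WT. The PDGF receptor gene Pdgfrb was at 7.36, 5.38 and 9.77 CPM in Shp2 KO and at 7.77, 5.02, 6.48 and 5.04 CPM in WT. In both genes the groups overlapped, with log2 fold changes of -0.20 ± 0.21 and 0.30 ± 0.28 (SE). The related receptor gene Pdgfra ranged from 9.46 to 14.0 CPM in Shp2 KO and from 11.3 to 14.0 CPM in WT. Rgs5, a pericyte gene that restrains G protein signalling, ranged from 305 to 580 CPM in Shp2 KO and from 367 to 487 CPM in WT. Ecm1, which encodes a secreted matrix glycoprotein, ranged from 142 to 245 CPM in Shp2 KO and from 198 to 213 CPM in WT. For these 3 genes the WT range lay inside or nearly inside the wider range of the 3 knockout libraries. Over the 9 identity genes, 6 had a log2 fold change above 0, 1 had an unadjusted p under 0.05 (Ngfr), and the median was 0.30.

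The contractile genes were barely present. Acta2, the smooth muscle actin gene of activated stellate cells, was at 1.06, 1.36 and 2.53 CPM in Shp2 KO and at 1.81, 1.04, 0.914 and 1.47 CPM in WT. Tagln, the gene of the actin-binding protein transgelin, was at 0.515, 1.01 and 0.618 CPM in Shp2 KO and at 0.479, 0.362, 0.498 and 0.547 CPM in WT. Neither gene separated the groups, with log2 fold changes of 0.30 ± 0.41 and 0.56 ± 0.42 (SE). The Acta2 value turned to -0.14 without Shp2 KO replicate 3. Exons of antisense genes cover 67.9% of the Tagln exon bases, so its counts are uncertain.

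All 5 fibrillar collagen genes had log2 fold changes above 0, with Col3a1 the clearest. Col3a1, whose product forms the fine reticular fibres of the liver, was at 50.9, 41.2 and 54.5 CPM in Shp2 KO and at 36.7, 26.6, 29.1 and 38.0 CPM in WT. Its means were 48.9 ± 6.91 CPM in Shp2 KO (SD, n = 3) and 32.6 ± 5.59 CPM in WT (SD, n = 4), and every knockout library lay above every WT library. The log2 fold change was 0.58 ± 0.20 (SE; edgeR, unadjusted p = 0.0131, adjusted p = 0.929). It stayed between 0.50 and 0.68 when any single library was left out. On CPM from library size alone the groups overlapped, with 35.9 CPM in Shp2 KO replicate 2 and 41.2 CPM in WT replicate 1.

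The type I collagen genes gave no such separation. Col1a1 was at 1.91, 1.42 and 3.83 CPM in Shp2 KO and at 1.65, 1.40, 2.33 and 1.60 CPM in WT. Col1a2, whose chain assembles with that of Col1a1, was at 17.6, 16.7 and 22.1 CPM in Shp2 KO and at 15.5, 16.2, 16.3 and 18.0 CPM in WT. Both genes were highest in Shp2 KO replicate 3. For Col1a1 the log2 fold change, 0.46 ± 0.40 (SE; edgeR, adjusted p = 0.956), was -0.04 without that library, and that of Col1a2 was 0.19 ± 0.19 (SE). Per kilobase of the principal transcript, Col1a2 was at 3.52 ± 0.542 CPM per kb in Shp2 KO (SD, n = 3) and 3.08 ± 0.195 in WT (SD, n = 4). Col1a1 was at 0.403 ± 0.215 CPM per kb in Shp2 KO and 0.294 ± 0.0681 in WT, so the partner chains differed widely in level in both groups.

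The minor fibrillar chains of collagen V, which set fibre diameter, leaned the same way as Col3a1. Col5a1 was at 7.81, 5.62 and 8.22 CPM in Shp2 KO and at 5.75, 4.14, 5.73 and 5.09 CPM in WT. Col5a2 was at 22.6, 15.7 and 28.8 CPM in Shp2 KO and at 12.8, 25.0, 11.8 and 11.1 CPM in WT. In Col5a1 only Shp2 KO replicate 2 fell within the WT range, and in Col5a2 only WT replicate 2 reached the knockout range. Their log2 fold changes were 0.48 ± 0.25 and 0.56 ± 0.32 (SE; edgeR, adjusted p = 0.956 for both). Without WT replicate 2 the Col5a2 value was 0.91 (unadjusted p = 0.00583, adjusted p = 0.847). Summed over the 5 genes, fibrillar collagen was at 101, 80.7 and 118 CPM in Shp2 KO and at 72.4, 73.4, 65.2 and 73.7 CPM in WT. On CPM from library size alone the lowest knockout sum was 70.4 CPM and the highest WT sum 81.3 CPM, so that these ranges overlapped.

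**Figure D2:**
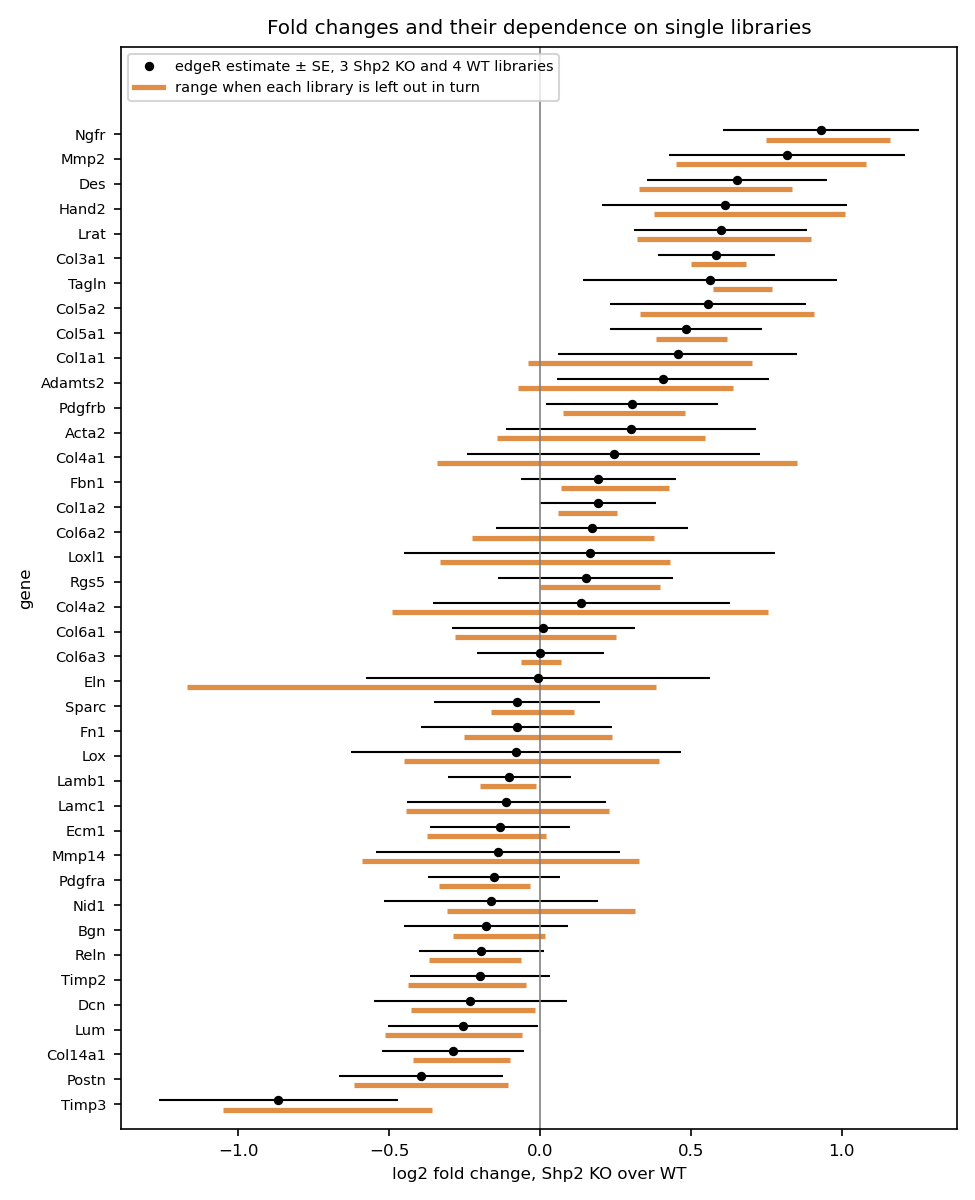
log2 fold changes of Shp2 KO over WT for the 40 genes tested, as black points with SE bars from edgeR, and orange bars for the range when each library is left out in turn, over the fits that tested the gene. Col3a1 (0.58) and Ngfr (0.93) keep their ranges well above 0, whereas those of Eln, Col4a1 and Col4a2 run from below to above it. Ranges of other genes also stay above 0, among them Mmp2 (0.45 to 1.08), Col5a1 (0.38 to 0.62) and Lrat (0.32 to 0.90).

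The 4 genes with the smallest p that have a RefSeq promoter entry were Col3a1, Ngfr, Timp3 and Des, and their upstream sequences are shown because the values of Col3a1 and Ngfr set the groups most apart. Entries matched by symbol for 28 of the 41 genes, in 30 windows. Each sequence below holds the 250 bases before the annotated start, from RefSeq on GRCm38.p6, written in the direction of the gene. This build differs from the GRCm39 build of the counts, and its coordinates apply to the sequences only. Capitals mark TATAA and GGGCGG on either strand (TTATA and CCGCCC on the other). Col3a1 lies at chr1:45311288-45311537 on the plus strand, Ngfr at chr11:95587699-95587948 on the minus strand, Timp3 at chr10:86300162-86300411 on the plus strand and Des at chr1:75360042-75360291 on the plus strand.
Col3a1: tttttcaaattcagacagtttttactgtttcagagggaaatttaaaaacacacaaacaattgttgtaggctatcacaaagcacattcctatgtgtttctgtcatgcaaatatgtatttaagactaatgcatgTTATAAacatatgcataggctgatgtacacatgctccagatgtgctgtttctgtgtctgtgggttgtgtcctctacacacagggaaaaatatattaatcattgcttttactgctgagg
Ngfr: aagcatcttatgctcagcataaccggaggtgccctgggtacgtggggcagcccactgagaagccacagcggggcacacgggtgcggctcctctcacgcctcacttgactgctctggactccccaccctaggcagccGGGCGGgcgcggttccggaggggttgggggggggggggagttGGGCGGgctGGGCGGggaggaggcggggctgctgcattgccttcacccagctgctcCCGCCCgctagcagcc
Timp3: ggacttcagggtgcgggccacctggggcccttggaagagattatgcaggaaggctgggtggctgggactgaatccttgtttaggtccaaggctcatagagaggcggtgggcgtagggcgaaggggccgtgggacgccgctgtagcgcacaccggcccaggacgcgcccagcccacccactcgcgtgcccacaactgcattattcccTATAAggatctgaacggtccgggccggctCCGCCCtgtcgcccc
Des: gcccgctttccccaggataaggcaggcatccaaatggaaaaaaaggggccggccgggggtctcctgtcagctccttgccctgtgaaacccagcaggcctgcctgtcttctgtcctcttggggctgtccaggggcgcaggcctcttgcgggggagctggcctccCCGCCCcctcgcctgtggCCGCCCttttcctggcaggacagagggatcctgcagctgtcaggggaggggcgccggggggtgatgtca
The Col3a1 window was poor in G and C, at 35.2%, and held no GGGCGG, while Ngfr was at 70.4% with 4 GGGCGG matches, Timp3 at 65.6% with 1 and Des at 67.2% with 2. The median over the 32851 windows of RefSeq genes, noncoding ones included, was 52.4%. GGGCGG was found in 20 of the 30 windows of these genes, or 66.7%, and in 32.7% of all windows. TATAA was found in 5 of the 30, or 16.7%, and in 22.8% of all windows. These matches describe letters in a fixed window and say nothing about binding.

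The collagen IV genes, whose chains build the basement membrane network, varied more between libraries of a group than between groups. Col4a1 was at 51.7, 42.9 and 118 CPM in Shp2 KO and at 31.3, 121, 40.0 and 46.7 CPM in WT. Col4a2 was at 28.7, 23.5 and 68.8 CPM in Shp2 KO and at 21.2, 74.9, 23.6 and 26.8 CPM in WT. In both genes Shp2 KO replicate 3 and WT replicate 2 stood far above the other 5 libraries. The log2 fold changes of 0.24 ± 0.48 and 0.14 ± 0.49 (SE) became -0.34 and -0.49 without Shp2 KO replicate 3, and 0.85 and 0.76 without WT replicate 2.

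The chains kept nearly the same ratio throughout, with 1.80, 1.82 and 1.72 Col4a1 counts per Col4a2 count in Shp2 KO and 1.48, 1.62, 1.69 and 1.74 in WT. Both genes are read in opposite directions from one start region, shown here because their levels moved together over the libraries. In RefSeq on GRCm38.p6 the transcripts overlap by 22 bases at their starts, at chr8:11312805-11312826, given on the plus strand from the Col4a2 start to the Col4a1 start.
Col4a1 and Col4a2 start region: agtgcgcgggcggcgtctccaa
The other collagens differed little. Col6a1, Col6a2 and Col6a3, the chains of the beaded microfibrils of collagen VI, ranged from 5.32 to 12.0, 3.19 to 7.17 and 7.22 to 8.90 CPM in Shp2 KO and from 6.37 to 10.3, 3.62 to 4.98 and 7.97 to 8.35 CPM in WT. In each of them Shp2 KO replicate 3 was highest and Shp2 KO replicate 2 lowest, so the WT range lay inside that of the knockout. Col14a1, whose collagen binds to fibril surfaces, ranged from 111 to 180 CPM in Shp2 KO and from 167 to 217 CPM in WT (log2 fold change -0.29 ± 0.24, SE).

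Of the basement membrane linkers, Nid1 and Lamc1 were highest in WT replicate 2 and Lamb1 in WT replicate 3. Nid1, the gene of nidogen, which joins laminin to collagen IV, was at 115, 104 and 136 CPM in Shp2 KO and at 92.0, 243, 103 and 89.7 CPM in WT. Its log2 fold change of -0.16 ± 0.35 (SE) turned to 0.32 without WT replicate 2. The laminin gene Lamc1 ranged from 22.1 to 40.6 CPM in Shp2 KO and from 22.2 to 50.4 CPM in WT, and Lamb1 from 14.0 to 18.2 CPM in Shp2 KO and from 15.5 to 20.6 CPM in WT. None of the 3 had an unadjusted p under 0.05.

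Other matrix proteins included the 3 genes highest per kilobase (Dcn, Sparc and Bgn), and 7 of 8 had log2 fold changes below 0, with a median of -0.13. Dcn, the gene of decorin, a small proteoglycan that coats collagen fibrils, was highest of all per kilobase, at 422 ± 123 CPM per kb in Shp2 KO (SD, n = 3) and 495 ± 112 in WT (SD, n = 4). In CPM it was at 923, 798 and 502 in Shp2 KO and at 1130, 669, 889 and 791 in WT. Postn, the gene of the matricellular protein periostin, was at 50.8, 46.4 and 21.9 CPM in Shp2 KO and at 59.2, 51.0, 53.8 and 45.2 CPM in WT. Both genes were lowest in Shp2 KO replicate 3, as was Lum, the gene of lumican, which ranged from 38.5 to 64.5 CPM in Shp2 KO and from 48.4 to 80.9 CPM in WT. The log2 fold changes were -0.23 ± 0.32 for Dcn, -0.40 ± 0.27 for Postn and -0.26 ± 0.25 for Lum (SE), and without Shp2 KO replicate 3 those of Dcn and Postn were -0.02 and -0.11.

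Sparc, the gene of a collagen-binding protein made by stellate and endothelial cells, was at 547, 460 and 596 CPM in Shp2 KO and at 512, 769, 469 and 502 CPM in WT. Fbn1, the gene of the microfibril protein fibrillin, was at 12.2, 12.7 and 15.7 CPM in Shp2 KO and at 10.1, 17.1, 9.55 and 10.4 CPM in WT, with 20.1% of its exon bases shared with an antisense gene. Bgn, the gene of the proteoglycan biglycan, ranged from 344 to 451 CPM in Shp2 KO and from 371 to 614 CPM in WT. WT replicate 2 was the highest library for all 3 genes. Eln, the gene of elastin, was at 1.36, 0.887 and 5.56 CPM in Shp2 KO and at 1.97, 3.88, 2.16 and 2.27 CPM in WT. For Eln, Shp2 KO replicate 3 lay above and the remaining knockout libraries below every WT library, and the Eln log2 fold change of -0.01 ± 0.57 (SE) became -1.17 without replicate 3 (edgeR, unadjusted p = 0.0194, adjusted p = 0.825).

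Fn1, the gene of fibronectin, was at 269, 238 and 222 CPM in Shp2 KO and at 155, 255, 208 and 406 CPM in WT, for which the log2 fold change came to -0.08 ± 0.32 (SE). WT replicate 4 held both the highest Fn1 level and the highest summed level of 20 hepatocyte markers, 94400 CPM, against 30500 CPM in WT replicate 1, where Fn1 was lowest. The part of hepatocyte RNA in the Fn1 values was not tested.

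The crosslinking enzyme genes Lox and Loxl1 were near the limit of detection, where 3 counts correspond to between 0.0909 and 0.185 CPM in Shp2 KO and between 0.126 and 0.249 CPM in WT. Both encode enzymes that crosslink collagen and elastin, and both stayed under 1 CPM in every library. Adamts2, which encodes the protease that trims the amino end of fibrillar procollagens, was at 3.73, 2.90 and 7.36 CPM in Shp2 KO and at 3.19, 3.21, 3.07 and 4.46 CPM in WT. Its log2 fold change of 0.41 ± 0.35 (SE) turned to -0.07 without Shp2 KO replicate 3, the highest library.

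Of the matrix proteases and their inhibitors, Timp3 had the largest negative and Mmp2 the second largest positive log2 fold change of the 40 genes, neither past the threshold. Timp3, which encodes an inhibitor of matrix proteases that is bound to the matrix, was at 224, 235 and 261 CPM in Shp2 KO and at 323, 829, 340 and 261 CPM in WT. Shp2 KO replicate 3 and WT replicate 4 had nearly the same level, and WT replicate 2 stood far above the rest. The log2 fold change was -0.87 ± 0.40 (SE; edgeR, unadjusted p = 0.0525, adjusted p = 0.956), and -0.36 without WT replicate 2. Exons of the antisense gene Syn3 cover 21.3% of the Timp3 exon bases. Mmp2, the gene of a gelatinase, was at 2.57, 1.54 and 3.96 CPM in Shp2 KO and at 1.81, 1.86, 1.41 and 1.01 CPM in WT. Its log2 fold change was 0.82 ± 0.39 (SE; edgeR, unadjusted p = 0.0626, adjusted p = 0.956), and 0.45 without Shp2 KO replicate 3.

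Mmp14, the gene of a membrane-bound collagenase that activates the Mmp2 product, was at 43.5, 32.4 and 79.9 CPM in Shp2 KO and at 43.3, 104, 42.9 and 37.8 CPM in WT. Timp2, whose inhibitor takes part in that activation, ranged from 39.2 to 66.6 CPM in Shp2 KO and from 50.2 to 75.8 CPM in WT. Both followed the collagen IV order, with WT replicate 2 highest and Shp2 KO replicate 3 next. Timp1, an inhibitor gene induced in injured liver, had 5, 7 and 6 counts in Shp2 KO and 11, 10, 9 and 10 counts in WT. These are 0.151, 0.414 and 0.371 CPM in Shp2 KO and 0.585, 0.518, 0.748 and 0.420 CPM in WT. Every knockout library was below every WT library, the nearest at 0.414 and 0.420 CPM, where this held for 3.05% of all genes tested, and on CPM from library size alone the groups overlapped.

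**Figure D3:**
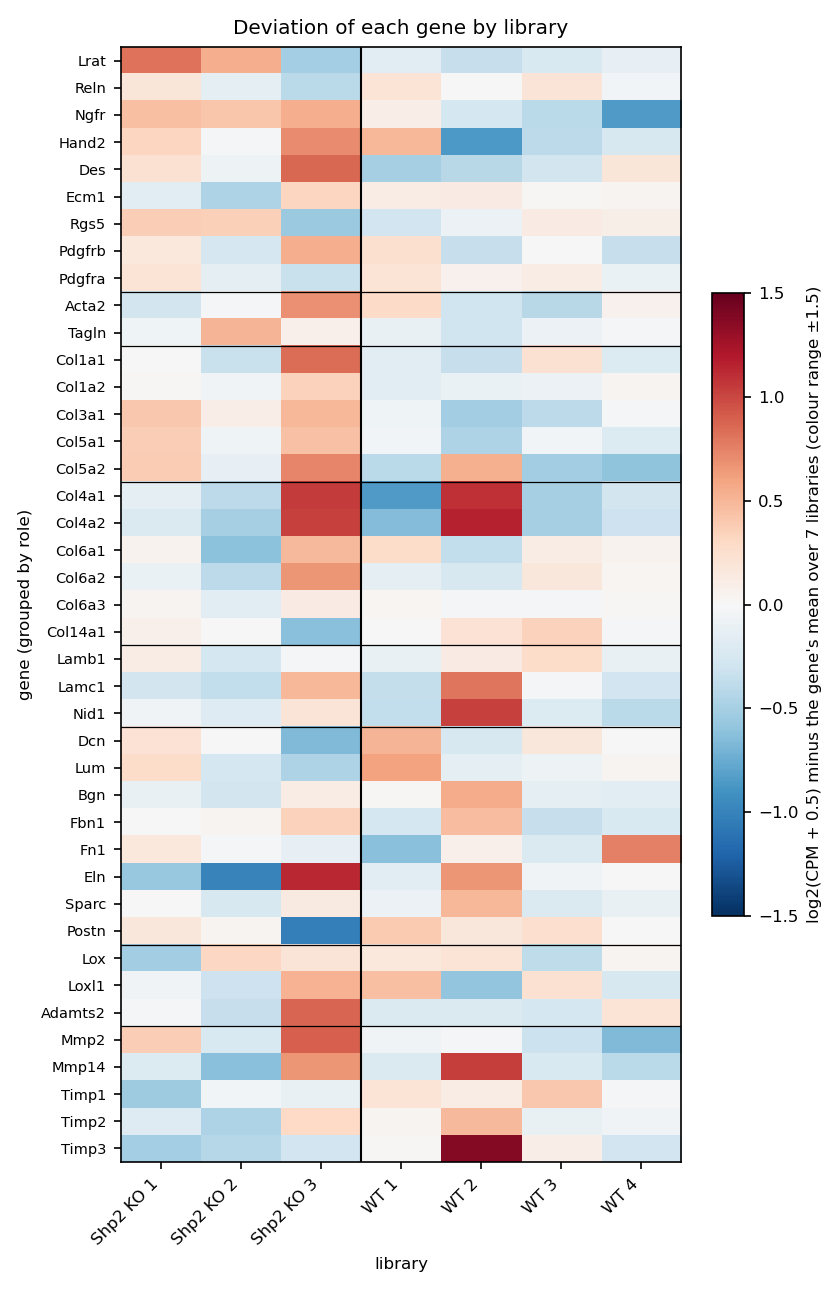
Deviation of each of the 41 genes from its own mean over the 7 libraries, as log2(CPM + 0.5), with the Shp2 KO libraries left of the black line and the WT libraries right of it. Shp2 KO replicate 3 is red for the fibrillar collagens and blue for Lrat, Dcn and Postn, and WT replicate 2 is red for Col4a1, Col4a2, Nid1, Mmp14 and Timp3.

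The extreme values of these genes were counted by library. Library 3 of Shp2 KO held the highest value of 18 of the 40 genes tested, or 45%, where it held the highest value of 26.7% of all genes tested. These 18 included all fibrillar and all collagen VI chains, Ngfr, Hand2, Des, Pdgfrb, Acta2, Eln, Adamts2 and Mmp2. The same library held the lowest value of 8 genes, or 20%, against 24.9% of all genes tested, and these were Lrat, Reln, Rgs5, Pdgfra, Col14a1, Dcn, Lum and Postn. WT replicate 2 held the highest value of 10 genes, or 25%, against 23.7% of all genes tested, and these were Col4a1, Col4a2, Lamc1, Nid1, Bgn, Fbn1, Sparc, Mmp14, Timp2 and Timp3. Shp2 KO replicate 2 held the lowest value of 12 genes, or 30%, against 10% of all genes tested. That library had the highest mitochondrial share, 33.2%, and the lowest TMM factor, 0.872. The part of either in these values was not tested.

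Summed levels of markers of other cells also varied between these libraries. The 16 sinusoidal endothelial markers summed to between 7600 and 11300 CPM in Shp2 KO and between 6690 and 17900 CPM in WT. Their sum was highest in WT replicate 2 and next in Shp2 KO replicate 3, the order also seen in Col4a1, Col4a2, Nid1, Lamc1, Mmp14 and Timp2. Single markers differed. Ptprb kept this order, whereas Stab2 was at 1070 CPM in Shp2 KO replicate 3 and 986 CPM in WT replicate 2. Fcgr2b was at 1370 CPM in Shp2 KO replicate 3 and 1660 CPM in WT replicate 1. The 16 Kupffer cell markers summed to between 4440 and 6430 CPM in Shp2 KO and between 5740 and 12500 CPM in WT, again highest in WT replicate 2. The 8 smooth muscle markers summed to between 16.9 and 37.2 CPM in Shp2 KO and between 16.8 and 19.9 CPM in WT, with Shp2 KO replicate 3 highest. Of the 37.2 CPM in that library, Smtn alone gave 25.4 CPM, and it was at most 8.90 CPM in each other library. Synpo2 was at 1.17 CPM in Shp2 KO replicate 3 and 2.21 CPM in replicate 1. Myh11 was at 4.57 CPM in Shp2 KO replicate 3 and 4.56 CPM in replicate 2. No marker of these 3 lists was at 0 in any library. The portal fibroblast and mesothelial list held 12 genes of other collagen-making cells, of which 9 were tested. Over the genes tested the median deviation was 0.83 (log2) in Shp2 KO replicate 3, the library highest for all fibrillar collagens. It was at most 0.11 in each other library. The sum of the list did not peak there, at 93.7 CPM in Shp2 KO replicate 3, 102 CPM in WT replicate 1 and 95.3 CPM in WT replicate 3. Msln, a mesothelial gene, was at 0.575, 0.828 and 4.33 CPM in Shp2 KO and at 1.38, 0.828, 0.997 and 1.85 CPM in WT, and Upk3b, another, was at 4.03, 3.90 and 8.10 CPM in Shp2 KO and at 6.71, 2.23, 4.40 and 3.15 CPM in WT. Thy1, also in this list, was at 34.4, 42.4 and 39.8 CPM in Shp2 KO and at 63.6, 31.4, 62.1 and 43.0 CPM in WT. Its level was thus not raised in Shp2 KO replicate 3. The part of all these markers in the collagen and stellate cell values was not tested.

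**Figure D4:**
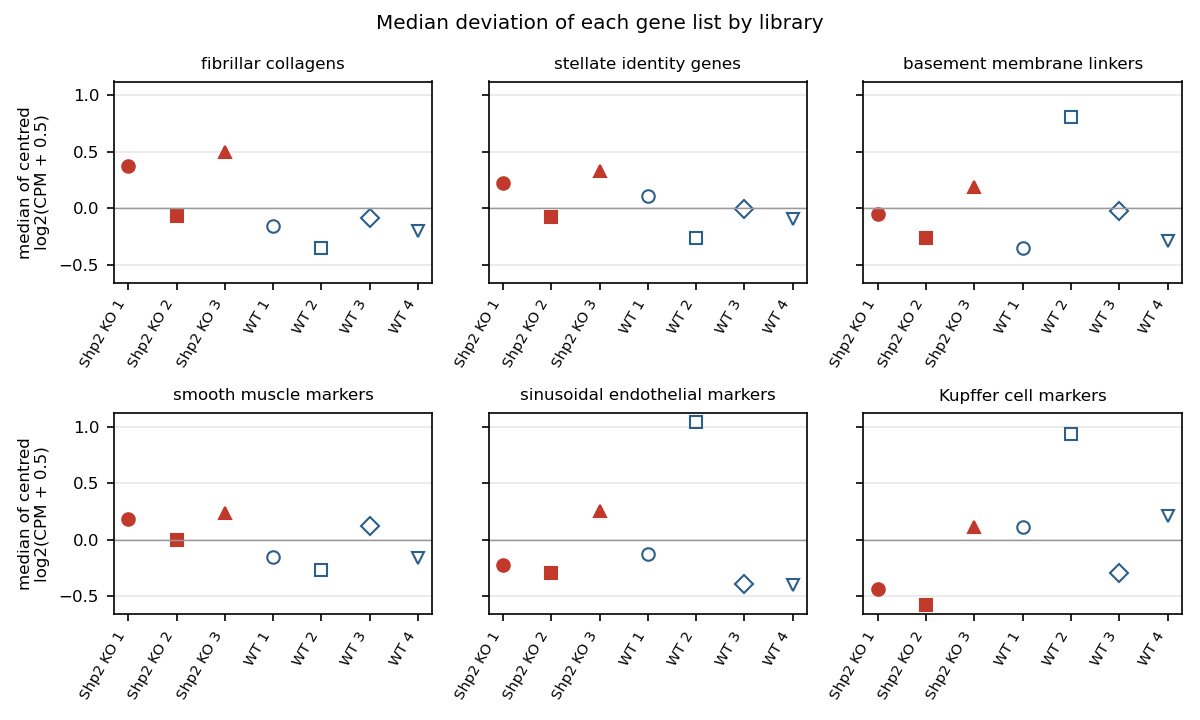
Median deviation of 6 gene lists in each library, over the genes tested. Each deviation is log2(CPM + 0.5) minus the mean of the gene over the 7 libraries. Shp2 KO libraries are in red and WT libraries in blue. The sinusoidal endothelial and Kupffer cell markers peak in WT replicate 2 at 1.04 and 0.94, as do the basement membrane linkers at 0.81. The median of the fibrillar collagens is lowest there at -0.35, although Col5a2 among them is at 0.53.

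Further genes of the same pathways gave few small p-values, and edgeR called 0 in any list. The list counts below stand beside 2.27% higher and 2.35% lower over all genes tested, at the same unadjusted p under 0.05. Of 20 other stellate cell genes tested, 15 had a log2 fold change above 0, with 3 higher and 0 lower at an unadjusted p under 0.05 and a median of 0.11. Nes, which encodes the intermediate filament nestin, was at 26.3, 17.6 and 40.4 CPM in Shp2 KO and at 23.8, 14.6, 16.3 and 14.4 CPM in WT. Pth1r, a parathyroid hormone receptor gene, was at 10.4, 7.75 and 12.1 CPM in Shp2 KO and at 7.93, 5.43, 8.06 and 4.25 CPM in WT. In both genes the groups overlapped, and the log2 fold changes of Nes and Pth1r were 0.70 ± 0.30 and 0.66 ± 0.29 (SE; edgeR, adjusted p = 0.956 for each).

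Of 21 genes tested in the machinery of collagen synthesis, 16 had log2 fold changes below 0, unlike the fibrillar collagens. At an unadjusted p under 0.05, 1 was lower and 0 higher, and the median was -0.21 beside 0.01 over all genes tested. The list summed to 1150, 1030 and 1140 CPM in Shp2 KO and to 1080, 1510, 1030 and 1600 CPM in WT. These ranges overlapped. Pcolce2, which encodes an enhancer of procollagen trimming, was at 10.7, 9.88 and 19.4 CPM in Shp2 KO and at 20.9, 36.3, 15.9 and 18.0 CPM in WT. P4ha1, which encodes a chain of collagen prolyl hydroxylase, was at 42.2, 58.4 and 58.9 CPM in Shp2 KO and at 62.4, 123, 57.6 and 69.6 CPM in WT. Plod2, which encodes a collagen lysyl hydroxylase, was at 5.12, 4.85 and 4.27 CPM in Shp2 KO and at 5.16, 5.74, 7.31 and 7.02 CPM in WT. Their log2 fold changes were -0.78 ± 0.34, -0.56 ± 0.28 and -0.41 ± 0.25 (SE), and WT replicate 2 was the highest library for Pcolce2 and P4ha1.

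Among other matrix proteases and inhibitors, 1 of 17 was higher and 1 lower at an unadjusted p under 0.05. Mmp13, the gene of an interstitial collagenase, was at 3.54, 5.15 and 3.65 CPM in Shp2 KO and at 1.92, 0.828, 0.831 and 1.43 CPM in WT. Every knockout library lay above every WT library, which held for 3.03% of all genes tested. The log2 fold change was 1.69 ± 0.37 (SE; edgeR, unadjusted p = 0.00089, adjusted p = 0.419). Mmp19 was at 14.1, 13.0 and 11.4 CPM in Shp2 KO and at 11.3, 31.6, 25.2 and 29.0 CPM in WT, which gives -0.92 ± 0.32 for its log2 fold change (SE; edgeR, adjusted p = 0.956). WT replicate 1 lay below all knockout libraries for Mmp19 and the other WT libraries above them. Adamts5 had a log2 fold change of 0.50 ± 0.33 (SE).

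Of 18 matrix receptor genes, 1 was lower and 0 higher at an unadjusted p under 0.05. This was the integrin gene Itgb3, at 17.2, 27.6 and 19.9 CPM in Shp2 KO and at 31.8, 58.3, 55.7 and 44.4 CPM in WT. Every knockout library lay below every WT library, which held for 3.05% of all genes tested. The log2 fold change came to -1.14 ± 0.26 (SE; edgeR, unadjusted p = 0.00131, adjusted p = 0.487). Itgb1, the common chain of most matrix-binding integrins, was at 446, 430 and 394 CPM in Shp2 KO and at 553, 999, 458 and 458 CPM in WT. Sdc4, the gene of a cell surface proteoglycan, had a log2 fold change of -0.48 ± 0.27 (SE). Of 15 profibrotic signal genes, 1 was lower and 0 higher at an unadjusted p under 0.05. It was Tgfb3, a transforming growth factor gene, at 2.09, 2.19 and 2.97 CPM in Shp2 KO and at 1.60, 13.8, 7.73 and 5.42 CPM in WT, which gives -1.57 ± 0.58 for its log2 fold change (SE; edgeR, adjusted p = 0.956). WT replicate 1 lay below the knockout libraries and the remaining WT libraries above them. Spp1, the gene of osteopontin, and Pdgfa, a PDGF ligand gene, had log2 fold changes of 0.51 ± 0.23 and 0.43 ± 0.32 (SE). Of 41 other matrix genes, 1 was higher at an unadjusted p under 0.05, Ltbp3, whose product binds latent TGF-beta, at 3.03, 2.54 and 4.70 CPM in Shp2 KO and at 1.92, 1.86, 2.16 and 2.02 CPM in WT. The log2 fold changes of Col4a5, a further collagen IV chain, and Lama2, a laminin chain, were 0.62 ± 0.34 and -0.48 ± 0.32 (SE).

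The portal fibroblast and mesothelial markers summed to between 66.3 and 93.7 CPM in Shp2 KO and between 69.5 and 102 CPM in WT, with 0 of 9 genes tested at an unadjusted p under 0.05. Of these markers, Gli1 had a count of 0 in at least 1 library. Thy1, Upk3b and Msln had log2 fold changes of -0.36 ± 0.25, 0.37 ± 0.41 and 0.54 ± 0.65 (SE). Smooth muscle markers likewise had 0 of 5 genes tested there. Smtn, a smooth muscle structural gene, was at 6.84, 5.68 and 25.4 CPM in Shp2 KO and at 7.77, 8.90, 6.89 and 7.74 CPM in WT, which set Shp2 KO replicate 3 apart from all other libraries. Synpo2 and Myh11, also of smooth muscle, had log2 fold changes of 0.41 ± 0.39 and 0.28 ± 0.29 (SE).

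Markers of other cells were counted in the same fit, with 0 called in each list. Over all genes tested, 2.27% were higher and 2.35% lower at an unadjusted p under 0.05. At an unadjusted p under 0.05, 6 of 16 Kupffer cell markers were lower (Clec4f, Vsig4, Timd4, Cd163, Folr2 and C6), as were 1 of 20 hepatocyte and 2 of 14 T and NK cell markers, and 0 of these were higher. Clec4f also drives Cre in the knockout line, and the part of the Cre allele in its level was not tested. At the same unadjusted p, 1 of 7 cholangiocyte markers and 1 of 8 B cell markers were higher, and of 7 neutrophil markers 2 were higher and 1 lower. Of the 16 sinusoidal endothelial markers, 0 were there, and Fcgr2b and Ptprb, the most abundant, had log2 fold changes of -0.37 ± 0.40 and -0.27 ± 0.41 (SE).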

How the data were processed

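The authors deposited raw read counts per gene for 7 RNA-seq libraries. Per the labels' protocols, total RNA was extracted with RNeasy kits and sequenced from TruSeq RNA v2 libraries, a kit that does not mark strand. Per the submitters' processing notes, FastQC 0.11.9, STAR 2.7.10a, SAMtools 1.9, featureCounts 2.0.3 and GRCm39 were used, with no settings stated. The counts were filtered with edgeR 4.0.16 in R 4.3.3 (filterByExpr, minimum count 10, minimum total 15), scaled with TMM factors and compared between 3 Shp2 KO and 4 WT libraries with the quasi-likelihood test. P-values were adjusted by Benjamini-Hochberg over all 14077 genes tested, at a threshold of 0.05. DESeq2 1.42.0, limma 3.58.1 voom, other scalings and filters and left-out libraries were the alternatives. The script was tested on simulated data. Values per library are given for the 10 members with the smallest p, for 14 chosen by role and for those with a library far from the others, and ranges for the rest. From each pathway list the 3 genes with the smallest p at a mean of at least 1 CPM are named, and from markers of other cells the most abundant. The members and lists were chosen with earlier results of these data known. Genes per kilobase use the principal transcript of GENCODE vM21. Floors of 3 counts cover counting error only. A gene that the naming rule selects is not reported here.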

Additional observations from a re-analysis of the deposited data

Results flagged for a closer look

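In 10 of the 41 genes, 1 WT library lay far from the other WT libraries, with a gap to its nearest neighbour of at least 0.829 of the whole WT range. Chance flags about 1 in 20 groups. Over all 14077 genes tested, 7.89% had such a WT library, and in 4.13% it was WT replicate 2 at the high end, so this library stood apart over the whole table too. In 9 of these genes the library was WT replicate 2, which was the highest at 25.0 CPM for Col5a2, 121 CPM for Col4a1, 74.9 CPM for Col4a2, 243 CPM for Nid1 and 17.1 CPM for Fbn1. It was also the highest at 3.88 CPM for Eln, 769 CPM for Sparc, 104 CPM for Mmp14 and 829 CPM for Timp3. For Adamts2 it was WT replicate 4, at 4.46 CPM. WT replicate 2 also had the highest summed level of sinusoidal endothelial markers, 17900 CPM, and of Kupffer cell markers, 12500 CPM, and their part in these values was not tested.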

How the results depend on the processing

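Under the 17 alternatives, 0 stellate or matrix genes were called, and Col3a1 and Ngfr were higher at an unadjusted p under 0.05 in all 17. Genes called over the whole table numbered 66 in DESeq2, 9 in voom with quality weights, 3 with library size only, 3 without the filter on low counts and 2 without WT replicate 2 and Shp2 KO replicate 3 together, against 0 otherwise. Stellate and matrix genes lower at an unadjusted p under 0.05 numbered 1 in DESeq2, with DESeq2 size factors, with library size only and without the filter, 3 with quality weights and 2 without the 2 libraries, and those higher numbered 4 in each of the last 2 settings. Leaving out each library in turn gave 2 to 4 higher, 0 to 1 lower, 0 genes called and a median log2 fold change of -0.098 to 0.23. On CPM from library size only, 0 of these genes had groups that do not overlap. Of the 40 genes tested, 20 kept their sign wherever they were tested. Signs of the log2 fold change turned in some genes, to these values: in DESeq2 Col6a1 -0.0068, Col6a3 -0.015, in limma voom Col6a1 -0.036, Col6a3 -0.0028, Fn1 0.021, in voom with quality weights Acta2 -0.12, Col1a1 -0.068, Col6a1 -0.32, Col6a2 -0.23, Col6a3 -0.044, Nid1 0.10, Fn1 0.18, Sparc 0.004, Loxl1 -0.46, with DESeq2 size factors Col6a1 -0.0069, Col6a3 -0.015, with upper quartile factors Eln 0.044, with library size only Col6a1 -0.0012, Col6a3 -0.026, Eln 0.021, with TMM factors computed without mitochondrial, hepatocyte, haemoglobin and Rn18s genes Eln 0.0068, without the filter on low counts Col6a3 -0.0067, with a filter of 1 CPM in 3 libraries Eln 0.0031, without WT replicate 2 and Shp2 KO replicate 3 together Pdgfrb -0.00089, Acta2 -0.25, Col1a1 -0.12, Col6a1 -0.40, Col6a2 -0.29, Col6a3 -0.067, Nid1 0.20, Sparc 0.026, Loxl1 -0.62, Adamts2 -0.11. Leaving out each library in turn gave log2 fold changes with both signs for 19 genes, namely Rgs5 -1.7e-05 to 0.40, Col6a1 -0.28 to 0.25, Col6a3 -0.063 to 0.071, Lamc1 -0.45 to 0.23, Eln -1.17 to 0.38, Lox -0.45 to 0.39, Ecm1 -0.37 to 0.021, Sparc -0.16 to 0.11, Mmp14 -0.59 to 0.33, Acta2 -0.14 to 0.55, Col1a1 -0.039 to 0.70, Col4a1 -0.34 to 0.85, Col4a2 -0.49 to 0.76, Col6a2 -0.22 to 0.38, Loxl1 -0.33 to 0.43, Adamts2 -0.072 to 0.64, Nid1 -0.31 to 0.32, Bgn -0.29 to 0.016, Fn1 -0.25 to 0.24. The cause of these turns was not tested. Tagln, Lox and Loxl1 failed the filter under some alternatives and have no value there. No paired analysis was possible because the replicate numbers follow accession order and pair no samples. Genes near 1 CPM, and 3 against 4 libraries, limit what could be detected.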

Other observations

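Ratios of counts within a library do not depend on the scaling of that library. These ratios were chosen after the values were seen. Col3a1 counts per Lrat count were 0.203, 0.197 and 0.542 in Shp2 KO and 0.285, 0.237, 0.239 and 0.288 in WT. Col1a1 counts per Lrat count were 0.00759, 0.0068 and 0.0381 in Shp2 KO and 0.0128, 0.0124, 0.0191 and 0.0121 in WT. For both ratios Shp2 KO replicate 3 lay above all WT libraries and the remaining knockout libraries below them. Dcn counts per Lum count were 14.3, 18.1 and 13.0 in Shp2 KO and 14.0, 13.8, 17.6 and 14.4 in WT, an overlap of the groups. Dcn and Lum are neighbours, with no protein-coding gene between them in RefSeq. Their ratio stayed narrow while Dcn itself ranged from 502 to 923 CPM in Shp2 KO and from 669 to 1130 CPM in WT. Col3a1 and Col5a2 are also such neighbours, but their ratio varied more. Col5a2 counts per Col3a1 count were 0.443, 0.382 and 0.528 in Shp2 KO and 0.35, 0.942, 0.406 and 0.293 in WT. Whether gene position plays a part in these ratios was not tested.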
